A study of Homo sapiens with 2 samples.

Results

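Expression of class 3 semaphorins, their neuropilin and plexin receptors and the growth cone gene GAP43 was measured in RKO cells given an siRNA to HNRNPM and in RKO cells given a control siRNA. The 10 genes are SEMA3A, SEMA3C, SEMA3D, NRP1, NRP2, PLXNA1, PLXNA2, PLXNA3, PLXND1 and GAP43, out of 54261 features in the count table. The set was chosen by gene symbol because SEMA3A and GAP43 read high in the siHNRNPM library, so the ratios of these genes are a description of that choice and support nothing further. RKO is a human colorectal carcinoma line, and both cultures were grown alike in serum-containing medium. The knockdown is labelled HNRNPM knockdown and the control is labelled WT, with 1 RNA-seq library of each. Neither the sequence of the siRNAs nor the time of harvest is given in the sources used here. With no replicates, variation between cultures was not measured, and any difference between cultures or library preparations cannot be told apart from the knockdown. Every interval given is a 95% counting interval, and no p-value is given.

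Class 3 semaphorins are secreted proteins that steer growing axons and migrating cells, mostly by repulsion. They bind neuropilins, which have short cytoplasmic tails, and the signal is passed on by plexins, whose cytoplasmic domains act on small GTPases and so on the cytoskeleton. GAP43 is a membrane-attached protein abundant in the growth cones of regenerating axons. Outside the nervous system the same ligands and receptors act in vessel growth and in tumour cell migration.

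The siHNRNPM library held 13056118 reads and the control library 19931360, so a gene at an equal level has fewer reads in the siHNRNPM library. Levels are therefore given as CPM, a read count relative to the size of the scaled library, and the 12925 genes that reached a CPM of 1 in either library are called measured. HNRNPM stood at 79.6 CPM after knockdown, against 144 CPM in the control library, which is 55.2% of the control level (51.3% to 59.2%). Of 9 colorectal and epithelial markers, EPCAM, KRT8, KRT18 and CDX2 were measured in these cells, whereas KRT20 had 0 reads in both libraries and KRT19, VIL1, LGALS4 and CDH1 had at most 10. All 10 genes passed the CPM filter.

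The ligands were higher in the siHNRNPM library and the receptors were level or lower. In bulk RNA, a change in the number of cells that express a gene and a change in RNA per cell cannot be told apart. The interval lay above a ratio of 1 for 4 of the 10 genes and below it for 3. Background shares were 22.0% above and 26.1% below over all measured genes. For the 4832 genes that average at least 50 CPM they were 27.4% and 36.3%. SEMA3A and GAP43 are among the 4 and were the reason for the choice, so the upward counts follow in part from it. At least 2-fold differences, with an interval that excludes a ratio of 1, were seen for GAP43 and SEMA3A in the upward direction and for PLXNA2 in the downward direction. Across all measured genes 2.45% were at least 2-fold higher by that rule and 1.49% at least 2-fold lower. The median log2 ratio was 0.02 over the 10 genes and -0.01 over all measured genes.

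**Figure D1:**
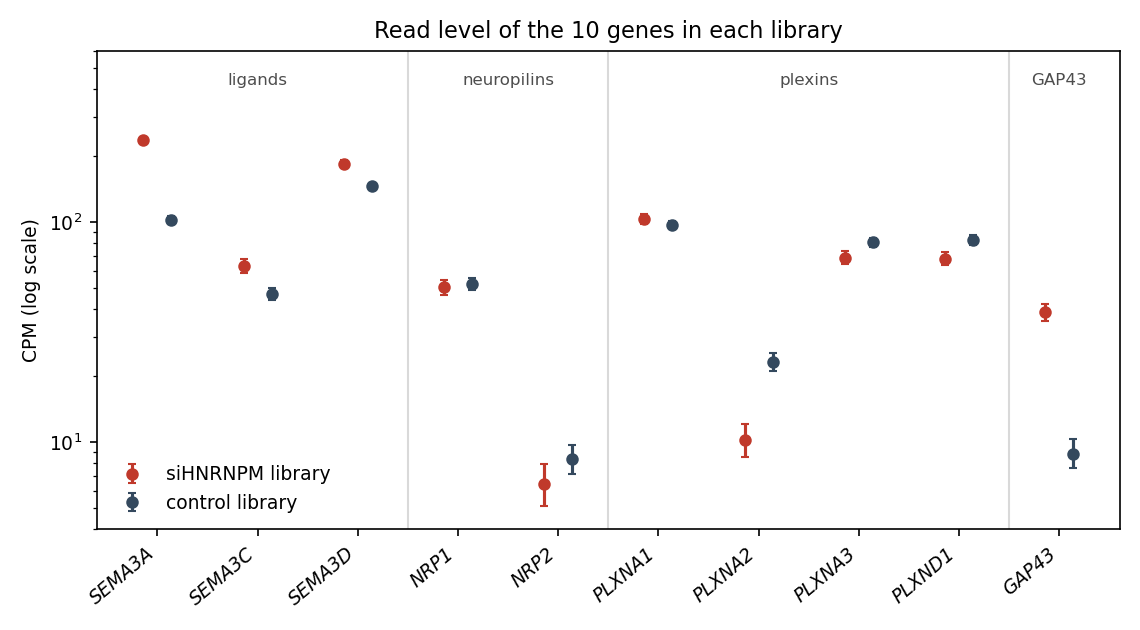
Level of each gene in CPM on a log axis, in the siHNRNPM library (red, left) and the control library (blue, right); bars are 95% Poisson intervals of the read count. SEMA3A stands at 235 CPM against 102, GAP43 at 38.8 against 8.85 and PLXNA2 at 10.2 against 23.0, while the other genes lie closer together.

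SEMA3A encodes the founding class 3 semaphorin, which signals through NRP1 with a class A plexin. It had 3082 reads in the siHNRNPM library and 2031 in the control library. That is 235 CPM (227 to 244) against 102 CPM (97.8 to 107), more reads from the shallower library. The log2 ratio was 1.21 (1.12 to 1.29), a 2.31-fold higher level. Among all 12925 measured genes, SEMA3A ranked 229th from the highest ratio. Of the 4832 genes that average at least 50 CPM, 3 had a higher ratio. SEMA3A was picked for reading high, so these places describe that choice. By abundance, SEMA3A ranked 716th of all features in the siHNRNPM library and 2439th in the control library.

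SEMA3D and SEMA3C were also higher, by less. SEMA3D, a ligand known from heart and vessel development in mice, had 2404 reads in the siHNRNPM library and 2884 in the control library, or 184 against 145 CPM. Its log2 ratio was 0.34 (0.26 to 0.42), a 1.27-fold higher level. SEMA3C, a ligand that acts in cardiac outflow tract development in mice, had 826 against 936 reads, or 63.1 against 47.1 CPM. Its log2 ratio was 0.42 (0.29 to 0.56), 1.34-fold higher. The counting intervals of SEMA3C and SEMA3D overlap each other and lie wholly below that of SEMA3A.

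The other class 3 semaphorins contributed little. SEMA3F, a ligand with a preference for NRP2, had 144 reads in the siHNRNPM library and 214 in the control library, which is 11.0 against 10.8 CPM with a log2 ratio of 0.03 (-0.28 to 0.34). SEMA3B had 14 against 11 reads, and its ratio of 0.95 had an interval from -0.29 to 2.23. SEMA3E, which can bind PLXND1 without a neuropilin, had 1 read against 0. SEMA3G had 0 reads in both libraries, which, with a floor of 3 counts, allows up to 0.229 CPM after knockdown and 0.151 CPM in the control. Of the 5 measured members of the family, 3 were higher and 0 were lower, and 2 had intervals that included a ratio of 1. Background shares were 22.0% higher and 26.1% lower over all measured genes, and 27.4% higher over those averaging at least 50 CPM. SEMA3A, among the 3, was a reason for choosing the set. The median log2 ratio of the 5 was 0.42.

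Shares within the family do not depend on how the libraries are scaled. SEMA3A made up 47.6% (46.4% to 48.9%) of the 6471 class 3 semaphorin reads in the siHNRNPM library and 33.4% (32.2% to 34.6%) of the 6076 in the control library. SEMA3D made up 37.2% (36.0% to 38.3%) against 47.5% (46.2% to 48.7%). The order of these ligands by reads was thus reversed, with SEMA3A first in the siHNRNPM library and SEMA3D first in the control library. SEMA3C took 12.8% against 15.4%, and SEMA3F 2.22% against 3.52%. Summed over the family, the level reached 494 CPM after knockdown, against 306 CPM in the control library, a log2 ratio of 0.69 (0.64 to 0.75).

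**Figure D2:**
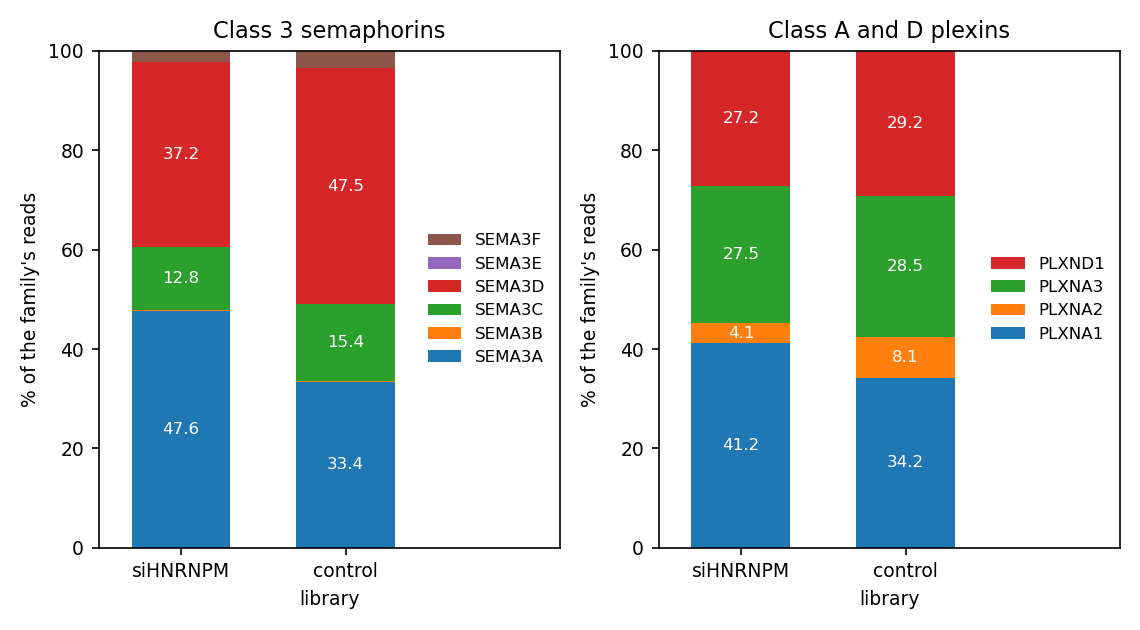
Percentage of the reads of each family taken by each gene, for class 3 semaphorins (left panel) and class A and D plexins (right panel), with the siHNRNPM library left of the control library in each. SEMA3A takes 47.6% against 33.4% of the semaphorin reads, and PLXNA2 takes 4.06% against 8.12% of the plexin reads; genes with 0 reads in both libraries are left out.

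NRP1 and NRP2, the ligand-binding coreceptors, showed no difference beyond counting error. NRP1, which binds SEMA3A and also VEGFA, had 659 reads in the siHNRNPM library and 1037 in the control library. This is 50.4 against 52.2 CPM and a log2 ratio of -0.05 (-0.19 to 0.09), so a change of the size seen for SEMA3C lies outside its interval. NRP2, which prefers SEMA3F and also binds VEGFC, had 84 against 166 reads, or 6.42 against 8.35 CPM. Its log2 ratio was -0.38 with an interval from -0.78 to 0.01 that just reached a ratio of 1. With DESeq2 size factors that interval lay below a ratio of 1. NRP1 supplied 88.7% (86.2% to 90.9%) of the neuropilin reads in the siHNRNPM library and 86.2% (84.1% to 88.1%) in the control library. SEMA3A had 4.68 reads for each NRP1 read in the siHNRNPM library and 1.96 in the control library.

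PLXNA2 was the receptor with the largest difference. It encodes a class A plexin that serves as a receptor for secreted and transmembrane semaphorins. It had 133 reads in the siHNRNPM library and 458 in the control library, or 10.2 CPM (8.51 to 12.04) against 23.0 CPM (21.0 to 25.2). The log2 ratio was -1.18 (-1.47 to -0.90), a level 44.1% of that in the control library. Its share of the class A and D plexin reads was 4.06% (3.41% to 4.8%) of 3273 in the siHNRNPM library and 8.12% (7.42% to 8.87%) of 5638 in the control library.

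The other plexins differed by less. PLXNA1, a plexin that pairs with NRP1 in the SEMA3A receptor, had 1348 against 1929 reads, 103 against 97.02 CPM and a log2 ratio of 0.09 (-0.02 to 0.19). With upper-quartile scaling, or with the control library thinned to equal depth, that interval lay above a ratio of 1. PLXNA3, a class A plexin that pairs with NRP2 in SEMA3F signalling in mice, had 901 against 1605 reads and 68.8 against 80.7 CPM, with a log2 ratio of -0.23 (-0.35 to -0.11). PLXND1, the receptor of SEMA3E in mouse vessels and a receptor of SEMA3C with a neuropilin, had 891 against 1646 reads, 68.1 against 82.8 CPM and a log2 ratio of -0.28 (-0.40 to -0.16). PLXNA1 made up 41.2% (39.5% to 42.9%) of the class A and D plexin reads in the siHNRNPM library and 34.2% (33.0% to 35.5%) in the control library. The shares of PLXNA3 and PLXND1 among the plexin reads were 27.5% and 27.2% in the siHNRNPM library and 28.5% and 29.2% in the control library, with overlapping intervals for each gene. PLXNA4 had 0 reads in both libraries. The L1-family coreceptors CHL1 and NRCAM also had 0, and L1CAM had 0 against 3. Over the whole receptor list of 10 genes, 6 were measured, of which 0 were higher, 3 were lower and 3 had intervals that included a ratio of 1. Background shares were 22.0% higher and 26.1% lower over all measured genes, and 36.3% lower over those averaging at least 50 CPM. The median of the receptor list was -0.26.

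**Figure D3:**
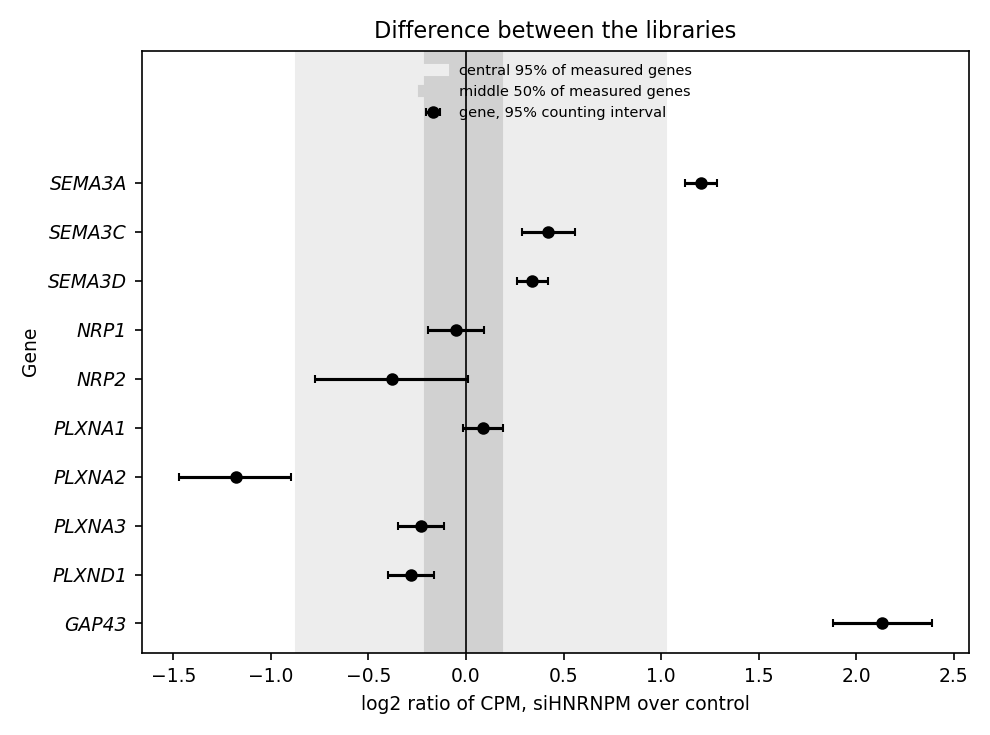
Log2 ratio of CPM, siHNRNPM over control, for each gene with its 95% counting interval (points and bars); the dark band holds the middle 50% of all measured genes, from -0.21 to 0.18, and the light band the central 95%, from -0.87 to 1.03. GAP43, SEMA3A and PLXNA2 lie outside the light band.

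PLXNA2 and SEMA3D were the members whose 3′ UTR held the 7-base sequence GTGAGAA, which was searched because genes that carry it had a lower median ratio in an earlier analysis of the same libraries. Of 10789 measured protein-coding genes, 14.7% held it in their longest annotated 3′ UTR, with a median log2 ratio of -0.14 against -0.01 for genes without it. These medians restate the reason for the search. They were not matched for 3′ UTR length, with which the share of genes holding the sequence rises. PLXNA2 held 2 copies in 5001 bases, where 29.5% of genes with a 3′ UTR of 0.5 to 2 times that length hold at least 1. SEMA3D held 1 copy in 3887 bases, where the share at like length is 25.4%. The other 8 members held none on the transcript strand, among them SEMA3A with 5594 bases. A match describes the sequence only, and the member with 1 copy was higher while the member with 2 copies was lower. The sites are shown 5′ to 3′ on the transcript strand with the 7 bases in capitals. They were taken from GENCODE 29 transcripts, at chr1:208027010-208027039 and chr1:208023172-208023201 for PLXNA2 and chr7:84997692-84997721 for SEMA3D, all on the minus strand of GRCh38.
PLXNA2 site 1: cgtccatcctcaGTGAGAAcaccagagaac
PLXNA2 site 2: gaggctcagtggGTGAGAAaatgcaaagtg
SEMA3D site: aaagaaaagtctGTGAGAAaaccctgtgat

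GAP43 had the largest ratio of the 10 genes. It had 508 reads in the siHNRNPM library and 176 in the control library, or 38.8 CPM (35.5 to 42.3) against 8.85 CPM (7.59 to 10.3). The log2 ratio was 2.13 (1.88 to 2.39), a 4.39-fold higher level. Of the 12925 measured genes, 44 had a higher ratio. By abundance the gene ranked 5720th of all features in the siHNRNPM library and 9669th in the control library.

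Beside GAP43, neuron markers were near absent from both libraries. Of 12 neuron markers, RBFOX3, SNAP25, NEFL, NEFM, ELAVL4, STMN2 and SYT1 had 0 reads in both libraries, and TUBB3 alone was measured, at 13.9 against 13.7 CPM. The summed level of the list was 15.7 CPM after knockdown, against 14.9 CPM in the control library. ELAVL3, which stayed under the CPM filter, had 7 against 2 reads, a 5.32-fold higher level whose interval (1.01 to 52.5) lay above a ratio of 1. Fibroblast, endothelial and leukocyte markers summed to 3.51 against 1.61 CPM over 6 genes, of which 2 were measured. Both of these, the collagen genes COL1A1 and COL1A2, met the rule for an at least 2-fold higher level, as did 2.45% of all measured genes. They passed the CPM filter only through the siHNRNPM library, at 1.60 and 1.07 CPM against 0.654 and 0.402 CPM in the control library. COL1A1 had 21 against 13 reads, 2.45-fold higher (1.17 to 5.33). COL1A2 had 14 against 8 reads, 2.66-fold higher (1.04 to 7.31). PTPRC, the leukocyte marker, had 0 reads against 2. The part of these differences in the results was not tested.

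Other growth cone and neurite genes differed less than GAP43 and in both directions. Of 8 measured in a list of 14 without GAP43, 2 were higher, 5 were lower and 1 had an interval that included a ratio of 1, where 22.0% of all measured genes were higher and 26.1% lower. Over genes averaging at least 50 CPM the shares were 27.4% and 36.3%. The median of the 8 was -0.15. MARCKS, a membrane-bound actin-binding substrate of protein kinase C, was higher at 68.6 against 52.4 CPM (log2 ratio 0.39, 0.26 to 0.52). ENAH, an actin polymerisation factor, was lower at 21.0 against 30.7 CPM (-0.55, -0.76 to -0.34). The microtubule-destabilising genes STMN1 and STMN3 had log2 ratios of -0.17 and -0.31, and the actin-bundling gene FSCN1 had -0.14. BASP1, a growth cone protein often grouped with GAP43, had 0 reads in the siHNRNPM library and 3 in the control library.

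Levels of different genes can be compared only roughly, here by dividing by the length of their merged exons, which pool all annotated transcripts. For NRP2 the merged exons came to 13896 bases, against 5909 in its transcript with the longest 3′ UTR. For SEMA3A they came to 9371 against 8225 bases, so the order and its overlaps depend on the length used. On this scale of CPM per kilobase the order in the siHNRNPM library was SEMA3A (25.1), SEMA3D (22.8), GAP43 (18.6), SEMA3C (10.1), PLXNA1 (9.41), PLXND1 (6.99), PLXNA3 (5.88), NRP1 (4.37), PLXNA2 (0.737) and NRP2 (0.462). In this library only SEMA3C and PLXNA1 were neighbours with overlapping counting intervals. In the control library the order was SEMA3D (18.0), SEMA3A (10.9), PLXNA1 (8.86), PLXND1 (8.501), SEMA3C (7.51), PLXNA3 (6.89), NRP1 (4.53), GAP43 (4.24), PLXNA2 (1.67) and NRP2 (0.601). Here PLXNA1 overlapped PLXND1, SEMA3C overlapped PLXNA3, and NRP1 overlapped GAP43. GAP43 thus stood 3rd of the 10 genes in the siHNRNPM library and 8th in the control library, while PLXNA2 and NRP2 were last in both.

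**Figure D4:**
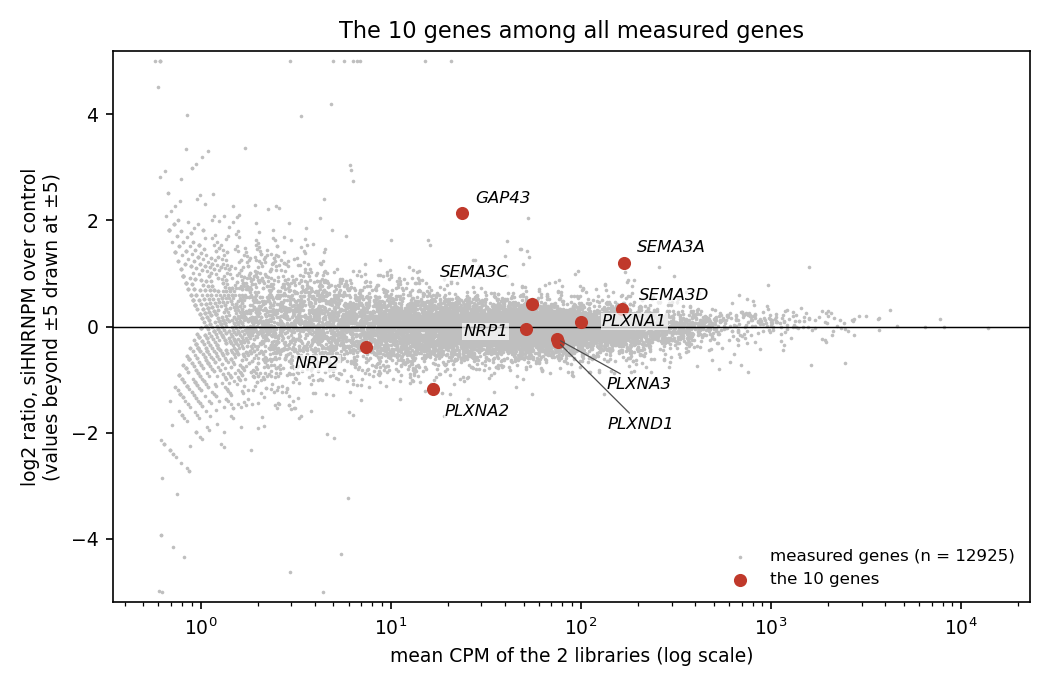
Log2 ratio, siHNRNPM over control, against the mean CPM of both libraries on a log axis, for the 10 genes (red) and the 12925 measured genes (grey). SEMA3A lies at the upper edge of genes of its abundance, GAP43 well above most genes of its own, and PLXNA2 at the lower edge.

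Few protein-coding genes of like abundance had ratios near those of SEMA3A and GAP43. Both were picked for reading high, so their places describe that choice. Only protein-coding genes were compared, which make up 144 of the 317 measured genes at least 2-fold higher. Among 2491 protein-coding genes whose mean CPM was 0.5 to 2 times that of SEMA3A, SEMA3A had the highest ratio, and the next were the heme oxygenase gene HMOX1 at 1.13 and MRFAP1 at 1.03. Among 3824 such genes around GAP43, only STC2 and SERPINF1 were higher, with 398 reads against 0 and 543 against 1. The next below were PRPF8 at 1.64 and RPS19BP1 at 1.61. Likeness was measured as the difference in log2 ratio over 2 libraries. The counting intervals of SEMA3A (1.12 to 1.29) and HMOX1 (1.07 to 1.20) overlap.

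The higher ligands are neighbours on chromosome 7. On GRCh38 (GENCODE 29), SEMA3C lies at chr7:80742538-80922359, SEMA3A at chr7:83955777-84492724 and SEMA3D at chr7:84995553-85186855, all on the minus strand and within 4.44 Mb. The 7 protein-coding genes from SEMA3C to SEMA3D include 6 that were measured, of which 5 had an interval above a ratio of 1. The stretch was drawn by the higher ligands, which make up 3 of those 5, so only the 3 measured genes that are not semaphorins add to it. Of these, 2 were higher, where 22.0% of all measured genes and 27.4% of those averaging at least 50 CPM were higher. HGF, encoding hepatocyte growth factor, had 883 against 619 CPM and a log2 ratio of 0.51 (0.48 to 0.55). CACNA2D1, encoding a calcium channel subunit, had 336 against 273 CPM and 0.30 (0.24 to 0.36). PCLO, encoding a presynaptic scaffold protein, had 17 against 20 reads and an interval that spanned a ratio of 1.

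The genes just outside this stretch were looked at after those values were seen. Of the 5 protein-coding genes on each side, 7 of 10 were measured, with 1 higher, 4 lower and 2 undecided by their intervals. Background shares over all measured genes were 22.0% higher and 26.1% lower. On the SEMA3C side PHTF2 had a log2 ratio of -0.58 and GNAI1 -0.21. On the SEMA3D side DMTF1 had -0.12, TMEM243 0.35 and CROT -0.47. GAP43, at chr3:115623324-115721490 on the plus strand, had no such measured company. Its neighbour ZBTB20 was level at 158 CPM in both libraries with a log2 ratio of -0.0041 (-0.08 to 0.08), TIGIT and LSAMP had 0 reads in both, and IGSF11 had 0 against 4.

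**Figure D5:**
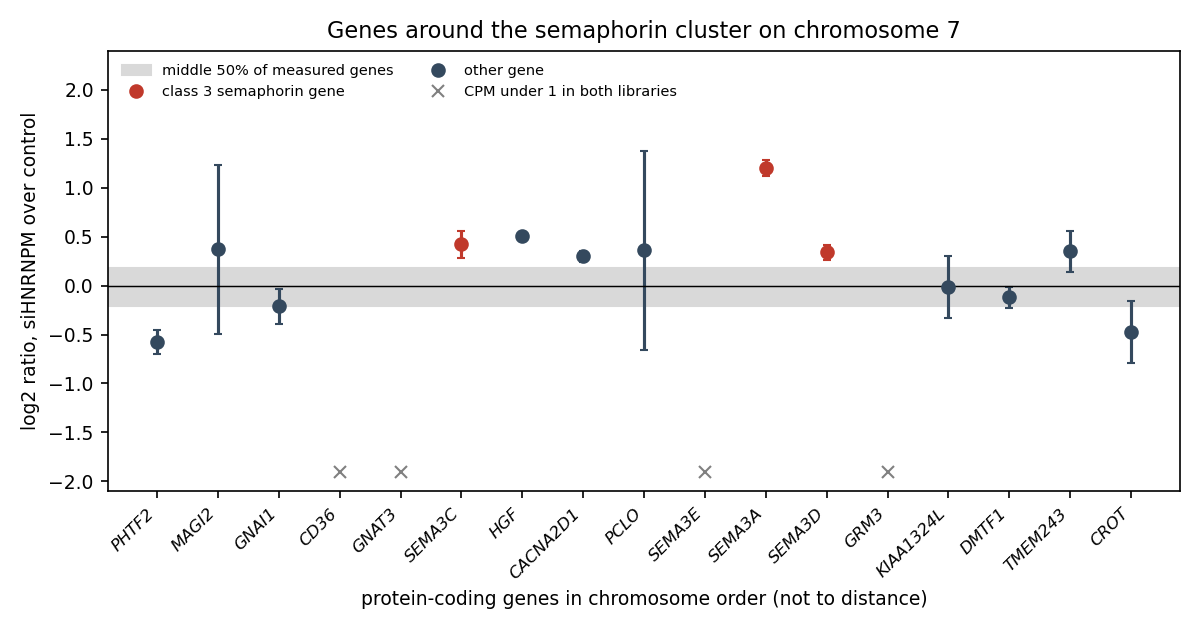
Log2 ratio, siHNRNPM over control, with 95% counting intervals for protein-coding genes in chromosome order from 5 genes before SEMA3C to 5 genes after SEMA3D; class 3 semaphorin genes are red, other genes blue, crosses mark genes under a CPM of 1 in both libraries, and the grey band holds the middle 50% of measured genes. SEMA3C, HGF, CACNA2D1, SEMA3A and SEMA3D lie above the band with their whole intervals.

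Among cytoplasmic genes of semaphorin signalling, LIMK1 was lower and RAC1 higher. Of 21 measured in a list of 26, 3 were higher, 10 were lower and 8 had intervals that included a ratio of 1. Over all measured genes 22.0% were higher and 26.1% lower, and over the 4832 that average at least 50 CPM 27.4% were higher and 36.3% lower. The median of the list was -0.16. LIMK1, a LIM kinase that inactivates cofilin, was lowest at 45.1 against 80.3 CPM (-0.83, -0.97 to -0.70). The other LIM kinase gene of the list, LIMK2, was higher, with a log2 ratio of 0.26 (0.06 to 0.45). PAK1, a kinase that acts upstream of LIM kinase, had -0.30 (-0.39 to -0.20), and CDK5R1, the activator of the kinase CDK5, had -0.35 (-0.66 to -0.04). RAC1, a GTPase recruited in growth cone collapse, was higher at 246 against 173 CPM (0.51, 0.44 to 0.58). The most abundant genes of the list, RHOA and the cofilin gene CFL1, had log2 ratios of 0.04 and 0.01.

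The convertases that cleave class 3 semaphorins were all lower, 4 of 4 measured, with a median of -0.35, where 26.1% of all measured genes and 36.3% of those averaging at least 50 CPM were lower. FURIN, the best studied of them, had 110 against 142 CPM and a log2 ratio of -0.36 (-0.45 to -0.27). PCSK5, PCSK6 and PCSK7 had -0.33, -0.37 and -0.30. Processing of the proteins was not measured.

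Of 9 measured semaphorins of classes 4 to 7, which are mostly membrane-bound, 1 was higher, 4 were lower and 4 had intervals that included a ratio of 1. Over all measured genes the shares were 22.0% higher and 26.1% lower, and over those averaging at least 50 CPM 27.4% and 36.3%. The median was -0.16, and 0.035 without the CPM filter. A difference between these genes and the class 3 ligands was not tested. SEMA4B, SEMA4F and SEMA4G, all transmembrane, had log2 ratios of -0.51, -0.43 and -0.34. SEMA4D, the ligand of PLXNB1, was the higher one at 0.26 (0.15 to 0.38), and the lipid-anchored SEMA7A had -0.08 (-0.17 to 0.01). Of the 4 class B and C plexins, 1 was higher and 1 was lower, with a median of 0.12. PLXNB2 had 0.17 (0.09 to 0.25) and PLXNB1 had -0.15 (-0.26 to -0.03), while for PLXNB3 and PLXNC1 the interval included a ratio of 1.

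Of 5 measured genes of the VEGF axis, which shares the neuropilins, 2 were higher, 0 were lower and 3 had intervals that included a ratio of 1. Background shares over all measured genes were 22.0% higher and 26.1% lower. The median of this list was 0.01, and -0.09 without the CPM filter. VEGFA, an NRP1 ligand, had 105 against 104 CPM and a log2 ratio of 0.01 (-0.09 to 0.11), and GIPC1, which binds the NRP1 tail, had -0.09 (-0.20 to 0.02). VEGFB had 0.15 (0.00 to 0.30). VEGFC, an NRP2 ligand, had 21 reads against 4, a log2 ratio of 3.0 (1.43 to 5.0), and 4.39 with the control library thinned to equal depth. The VEGF receptors FLT1, KDR and FLT4 had at most 15 reads in either library.

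Sequence shared with other annotated genes was searched for in each member's transcript with the longest 3′ UTR, and most held little or none. Exons outside these transcripts were not searched. Those of SEMA3A, SEMA3C, SEMA3D, PLXND1 and GAP43 held no 50-base stretch in common with a transcript of another gene in GENCODE 29, on either strand. PLXNA2 shared 0.0878% of its 50-base stretches and PLXNA1 0.0111%, both with PLXNA3, which shared 2.21% with 220 genes. NRP1 shared 5.34% and NRP2 1.71%, each with an antisense gene, and the use of strand in counting is not given in the sources used here, so those levels may include antisense reads. PLXNA3 also overlaps 11 exon bases of LAGE3 on the opposite strand.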

How the data were processed

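RNA was measured in 2 libraries, 1 from siHNRNPM-treated and 1 from control RKO cells, tied to the table's columns by their titles. The authors deposited raw read counts, whole numbers listed by gene symbol without normalization. HISAT2 2.0.4 and GRCh38 are listed per the submitters' processing notes. The counter, annotation and use of strand are not given in the sources used here. Counts were scaled with TMM (edgeR 4.0.16, R 4.3.3; factors 1.00 and 0.998). The log2 ratio is siHNRNPM over control, and 0 reads were replaced by 0.5. Intervals of ratios are exact 95% Clopper-Pearson intervals, computed from how a gene's reads divide over the libraries. Intervals and floors (3 counts) cover counting error only, since PCR copies are not independent molecules. Intervals of single counts are exact Poisson. The procedure was tested on simulated Poisson counts, which follow the model of the intervals and hold no variation between cultures. No model was fitted across samples.

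The members and lists were chosen with earlier results of these data known. Named genes were all members, and from each list up to 4 with the largest ratio whose interval excludes 1 and the 2 most abundant. Also named were protein-coding neighbours, 2 on each side of GAP43, and the 2 genes next above and below SEMA3A and GAP43 in ratio. Genes named beyond these, including those with few or no reads, were chosen after their values were seen. The 3′ UTR taken was the longest of a gene's protein-coding transcripts. Symbols were matched to GENCODE 29 (GRCh38), and VEGFD was read under its older symbol. Alternatives were total-count, DESeq2 1.42.0 and upper-quartile scaling, no CPM filter or a CPM of 5, a thinned control library, 0.5 added to every count, a stricter interval rule, and totals without mitochondrial genes.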

Additional observations from a re-analysis of the deposited data

How the results depend on the processing

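Each of the 10 genes kept its direction under all scaling, thinning and pseudocount alternatives. The log2 ratio ran from 1.20 to 1.24 for SEMA3A, from 2.11 to 2.16 for GAP43 and from -1.19 to -1.15 for PLXNA2. The interval of NRP2 lay below a ratio of 1 with DESeq2 size factors (-0.39), and that of PLXNA1 above it with upper-quartile scaling or the thinned control library (0.12 each). Genes at least 2-fold higher and lower numbered 317 and 193, against 602 and 301 without a CPM filter and 70 and 50 at a CPM of 5 or more. Where both bounds had to pass 2-fold, they numbered 66 and 27. By that rule SEMA3A and GAP43 remained, while PLXNA2, with an upper bound of -0.90, did not. Without a CPM filter the median was 0.69 for class 3 semaphorins (SEMA3E enters, from 1 and 0 reads), 0.035 for semaphorins of classes 4 to 7 and 0.018 for growth cone genes with GAP43 (-0.06 without it), since genes with 1 to 3 reads enter. No paired analysis was possible because each group has 1 library, and no library could be left out for the same reason. Among class 3 semaphorins and their receptors, depth limits SEMA3B and NRP2 most, whose intervals are the widest of the measured genes.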

Other observations

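Other axon guidance families showed scattered differences. Of 8 measured netrin, slit and repulsive guidance genes in a list of 18, 2 were higher, 4 were lower and 2 had intervals that included a ratio of 1. Background shares over all measured genes were 22.0% higher and 26.1% lower. The median of the 8 was -0.10 on the log2 scale. The netrin receptor genes UNC5A and UNC5B differed in opposite directions, at 0.83 (0.33 to 1.34, from 75 and 64 reads) and -0.50 (-0.77 to -0.24). With the control library thinned, UNC5A had 1.41. ROBO3, of the slit receptor family, had 0.29, the netrin and RGM receptor gene NEO1 had -0.23, and RGMB, the most abundant of the list, had -0.09 at 347 against 369 CPM.

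Of 11 measured ephrins and Eph receptors in a list of 22, 5 were higher, 2 were lower and 4 had intervals that included a ratio of 1. Background shares over all measured genes were 22.0% higher and 26.1% lower. The median of this list was 0.15. EFNB2, a transmembrane ephrin that acts in vessels, had 254 against 199 CPM and a log2 ratio of 0.35 (0.28 to 0.42). EFNA3 had 0.34, EFNA5 had -0.38, and EPHA2, the most abundant of the list, had -0.19 at 317 against 362 CPM. EPHA10 had 1.70 (0.77 to 2.69), from 32 and 15 reads.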
